A study of Mus musculus with 6 samples.

Results

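The genes described here build the meiotic chromosome axis, join homologous chromosomes and carry out meiotic recombination. They were chosen by name as 36 genes, and every probe set annotated to one of them or to an older name of it was taken. The Affymetrix Mouse430A_2 array, on which groups of short probes called probe sets report transcript levels, measured 29 of the 36 with 40 probe sets, out of 12393 named genes and 22626 probe sets. For Sycp2, Syce1, Pds5b, Mei1, Meiob, Mdc1 and Spdya no probe set was used here. The tested samples were 3 preparations titled spermatogonial stem cells, the germ cells that keep sperm production going, each made from the pooled testes of 50 males by magnetic beads against a surface marker. The other 3 samples were titled total testicular cells. All mice carried the same Stra8-CD4HAglo transgene, in which a truncated form of the Stra8 promoter drives a surface protein with human CD4 domains, and strain background and age are not given in the sources used here. The source description calls the second group marker-negative cells, while its title calls it total cells, so these labels differ. The stem cell preparations are therefore a marker-selected fraction of a mixed tissue, and nothing in the labels states that replicates of 1 group came from separate cohorts.

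In meiosis, cohesin complexes with meiosis-specific subunits hold sister chromatids and organise them along a protein axis. The enzyme SPO11 breaks the DNA, recombinases use the homologous chromosome to repair the breaks, and the synaptonemal complex zips the homologues together while some repair events mature into crossovers. In the testis these steps belong to spermatocytes, which descend from spermatogonia through a last mitotic division and a round of replication started by Stra8. Several of the genes measured here (Smc1a, Smc3, Rad21, Pds5a, Brca1, Brca2, H2afx and Cdk2) also serve dividing body cells.

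Promoter windows of some axis and synaptonemal complex genes held the same short sequence words. The 5 shown were picked from windows with the word CACGTG, and their genes are followed through the arrays below. Windows of 250 bases before the transcript start were read from RefSeq (build GRCm38.p6), which held 33 windows of 29 of the 36 genes. These include genes without a probe set used here, such as Mdc1 and Spdya. Hormad1 entered with overlapping windows, each counted. Both strands were searched for the E-box CACGTG, for the MYB words TAACTG or its variant TAACGG, and likewise CAACTG or its variant CAACGG, for the E2F word GGCGGGAA and for the cyclic AMP response element TGACGTCA. The E-box stood in 7 of the 33 windows (21.2%), against 7.68% of 12566 windows of genes on the array. Its 6 genes were Sycp1, Sycp3, Syce2, Tex12, Hormad1 and Stag3. The E2F word stood in 8 windows (24.2%, against 2.85%), of Hormad1, Syce2, Tex12, Msh5, Pds5a, Prdm9 and Mdc1. MYB words stood in 10 windows (30.3%, against 21.0%), and the cyclic AMP element in 1 (3.03%, against 2.12%), that of Brca2. The windows of other members, such as Sycp2, Syce1, Rec8, Smc3 and Trip13, held none of these words. These are matches of letters, and no occupancy was measured. The windows of Sycp1 (chr3:102936101-102936350, minus strand), Sycp3 (chr10:88459337-88459586, plus strand), Tex12 (chr9:50561269-50561518, minus strand), Hormad1 (chr3:95559427-95559676, plus strand, the first of its listed starts) and Stag3 (chr5:138280259-138280508, plus strand) run 5′ to 3′ toward the gene, with matches in capitals, none of which overlap.
Sycp1: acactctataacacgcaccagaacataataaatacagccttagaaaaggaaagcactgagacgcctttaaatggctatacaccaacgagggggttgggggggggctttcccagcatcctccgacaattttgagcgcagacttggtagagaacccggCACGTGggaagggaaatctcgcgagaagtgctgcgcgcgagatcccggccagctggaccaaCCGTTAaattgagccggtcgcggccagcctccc
Sycp3: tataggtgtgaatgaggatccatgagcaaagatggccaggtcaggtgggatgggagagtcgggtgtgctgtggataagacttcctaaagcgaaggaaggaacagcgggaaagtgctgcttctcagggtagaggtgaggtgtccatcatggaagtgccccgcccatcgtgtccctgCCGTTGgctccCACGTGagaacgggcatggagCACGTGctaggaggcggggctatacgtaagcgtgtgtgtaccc
Tex12: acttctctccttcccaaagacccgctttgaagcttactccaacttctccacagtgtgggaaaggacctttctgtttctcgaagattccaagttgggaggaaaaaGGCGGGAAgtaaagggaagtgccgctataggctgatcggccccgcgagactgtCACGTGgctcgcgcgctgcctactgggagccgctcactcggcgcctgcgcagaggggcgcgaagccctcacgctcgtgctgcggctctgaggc
Hormad1: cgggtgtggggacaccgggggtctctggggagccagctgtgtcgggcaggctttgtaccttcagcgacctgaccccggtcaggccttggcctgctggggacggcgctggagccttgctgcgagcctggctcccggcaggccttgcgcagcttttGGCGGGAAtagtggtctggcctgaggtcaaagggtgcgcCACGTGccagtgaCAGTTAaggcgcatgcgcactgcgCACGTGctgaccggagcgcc
Stag3: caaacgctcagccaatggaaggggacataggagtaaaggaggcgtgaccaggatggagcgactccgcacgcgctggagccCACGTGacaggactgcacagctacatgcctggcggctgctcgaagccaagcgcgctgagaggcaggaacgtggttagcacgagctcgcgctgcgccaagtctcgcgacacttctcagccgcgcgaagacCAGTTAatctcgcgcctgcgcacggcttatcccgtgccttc

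The values are the authors' deposited log2 summaries of each probe set, and every difference is the stem cell mean less the mean of total testicular cells. Where a gene had several probe sets, the brightest on average over all 6 arrays stood for it. Tests come from limma across all 22626 probe sets, with Benjamini-Hochberg adjustment over all of them and a threshold of 0.05. Per array, between 66.9% and 81.3% of probe sets lay above background, set at the 95th percentile of the 27 probe sets for bacterial controls (log2 2.12 to 2.61). The stem cell arrays correlated at 0.970 to 0.984 with each other and the total testicular cell arrays at 0.992 to 0.995. Stem cell array 1 stood farthest from the rest for most of the meiotic genes. Macrophage genes were the clearest difference between the groups: 15 of 21 measured passed as higher (71.4%, beside 1.63% of all named genes). Their summed linear level was 4101 to 12333 on the stem cell arrays and 1251 to 1335 on the others. Markers of undifferentiated spermatogonia, which define the labelled cell, gave 1 of 21 passing as higher, Itgb1 (4.76%, beside 1.63% of all named genes). Their median difference was 0.04, with 11 higher (beside 43.0% of all named genes) and 10 lower (beside 57.0%). The groups did not overlap for 5 that were higher (beside 13.8%) and 3 that were lower (beside 19.2%). Their summed linear level, in which bright genes weigh most, was 402 to 507 on the stem cell arrays, against 555 to 567. Of these 21 genes, 19 did not exceed background by more than 2 log2 units in total testicular cells, among them Zbtb16 and Gfra1, and 2 were above background on no array. In bulk samples, fewer cells of a type and less RNA per cell cannot be told apart.

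Most of the 29 meiotic genes gave signal above background in both groups, with a small downward shift of their median in the stem cell preparations. None of the 29 genes passed the threshold by limma, in either direction, where 0.137% of all named genes passed as lower and 1.63% as higher. At an unadjusted p under 0.05, 10 of the 29 were lower (34.5%, beside 13.1% of all named genes) and 2 were higher (6.9%, beside 11.8%). The groups did not overlap for 10 genes that were lower, beside 19.2% of all named genes, and for 1 that was higher, beside 13.8%. The difference was negative for 24 of the 29 and for 57.0% of all named genes, and positive for 5, beside 43.0%. Its median was −0.21 over the 29 genes and −0.05 over all 12393. Over all 40 probe sets 0 passed by limma in either direction (beside 0.150% lower and 1.40% higher of all probe sets), and at an unadjusted p under 0.05, 12 were lower (beside 12.1%) and 3 higher (beside 11.4%). Groups did not overlap for 11 lower probe sets (beside 17.5%) and 2 higher ones (beside 13.5%), and 30 differences were negative (beside 55.0%) and 10 positive (beside 45.0%). All but Mnd1 and Mybl1 lay above background on all 6 arrays, and 21 of the 29 lay at least 2 log2 units above it in total testicular cells.

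The downward shift was uneven among the stem cell arrays. Set against the total testicular cell mean, the median of the 29 genes was −0.45, −0.11 and −0.10 on stem cell arrays 1, 2 and 3, beside −0.09, −0.06 and 0.00 for all named genes. Without stem cell array 1 the median was −0.10 for the 29 and −0.04 for all named genes. The same array had the highest macrophage sum (12333, against 4844 and 4101 on arrays 2 and 3) and the highest Leydig cell sum (6165, against 3045 and 2015). Total testicular cell arrays had a Leydig cell sum of 944 to 1484, and 0 of 12 Leydig cell genes passed as higher (beside 1.63% of all named genes). All 12 were higher at an unadjusted limma p under 0.05 (beside 11.8%). No defining marker of these 2 lists lay below background on every array, and their part in the shift of the meiotic genes was not tested.

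**Figure D1:**
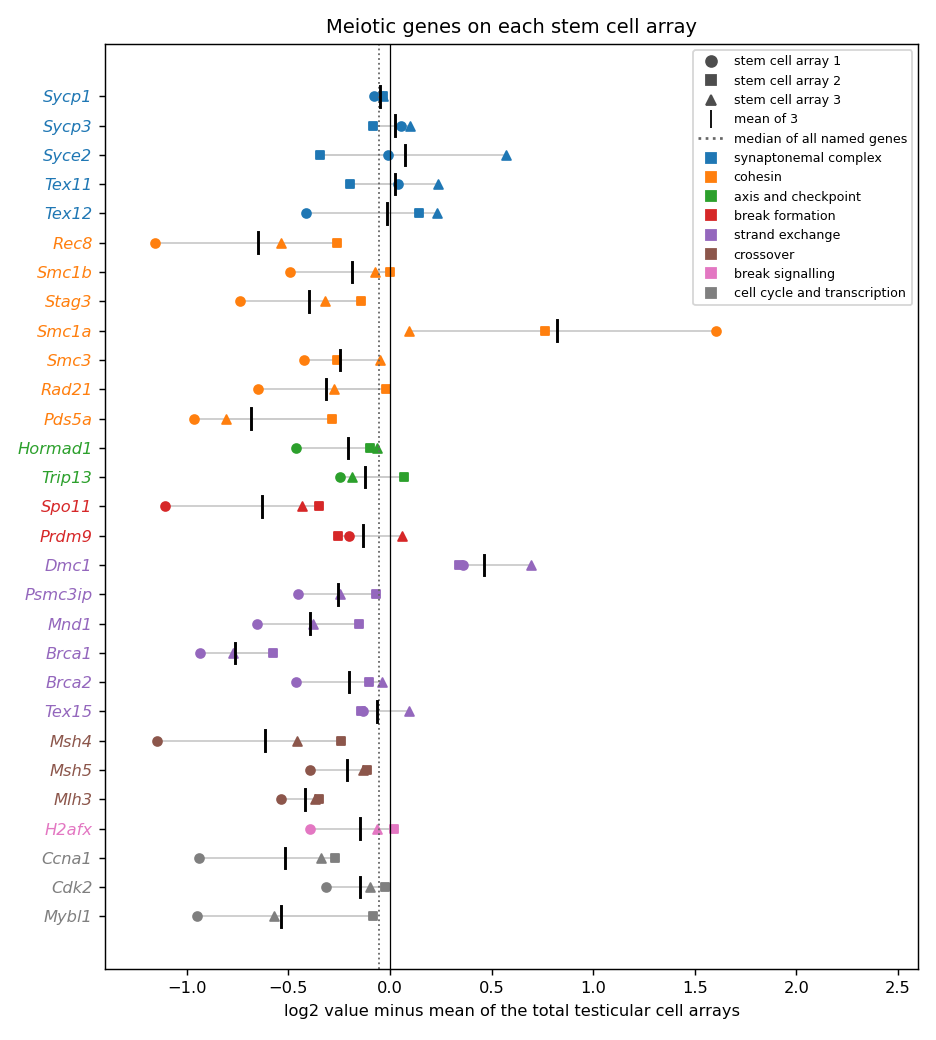
Each row is 1 meiotic gene, and each point is its log2 value on 1 stem cell array minus the total testicular cell mean. The black tick is the mean of the 3 differences, row colour is the role of the gene, and the dotted line is the median of all named genes (−0.05). Stem cell array 1 (circles) lies leftmost for most genes outside the synaptonemal complex, and Smc1a and Dmc1 lie to the right.

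Genes grouped here with the synaptonemal complex, 4 structural members and the crossover factor Tex11, lay close to 0: the 5 differed by −0.05 to 0.07, with a median of 0.02. Sycp1, the transverse filament that bridges the paired axes, had log2 values of 7.72, 7.77 and 7.77 on the stem cell arrays, against 7.82, 7.93 and 7.66 on the total testicular cell arrays. The groups overlapped, and the difference was −0.05 ± 0.14 (SE, 95% interval −0.36 to 0.26, limma adjusted p = 0.860). Sycp3, the protein of the lateral element along each axis, had 8.63, 8.49 and 8.67 on the stem cell arrays, against 8.52, 8.81 and 8.39. Here too the groups overlapped, with a difference of 0.02 ± 0.15 (SE, 95% interval −0.31 to 0.36, limma adjusted p = 0.941). On stem cell array 1, Sycp1 was 0.08 below the total testicular cell mean (−0.08) and Sycp3 was above it (0.06).

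The other 3 genes differed by −0.01 to 0.07, also with overlapping groups. Syce2, a central element protein that supports the spread of synapsis, had 9.24, 8.90 and 9.82 on the stem cell arrays, against 9.31, 8.91 and 9.52. Tex12, its partner in the central element, had 5.48, 6.03 and 6.12, against 5.92, 5.94 and 5.81, so that stem cell array 1 was the lowest of the 6. Tex11, an X-linked gene needed for crossing over, lay close to background, with 2.95, 2.71 and 3.14 on the stem cell arrays, against 2.85, 2.94 and 2.93. The adjusted p of these 3 genes lay between 0.882 and 0.978 in limma.

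Meiosis-specific cohesin subunits were above background on all 6 arrays, and none passed. Rec8, the kleisin that closes the meiotic cohesin ring, had 5.07, 5.96 and 5.69 on the stem cell arrays, against 6.22, 6.09 and 6.37 on the total testicular cell arrays. All 3 stem cell values lay below all 3 others, by 1.57-fold on average (log2 difference −0.65 ± 0.24 SE, limma adjusted p = 0.151). Stag3, the meiotic stromal antigen subunit, had 8.19, 8.79 and 8.61, against 8.93, 8.87 and 8.98. Its groups did not overlap either (−0.40 ± 0.16 SE, limma adjusted p = 0.186). Smc1b, the meiotic SMC subunit, had 7.86, 8.35 and 8.28, against 8.40, 8.30 and 8.34, so that only array 1 stood below the total testicular cell arrays beyond a few hundredths. The difference of Smc1b was −0.19 (95% interval −0.55 to 0.17, limma adjusted p = 0.504).

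Subunits shared with mitotic cells showed no single direction. Smc1a, the X-linked mitotic counterpart of Smc1b, had 4.42, 3.58 and 2.92 on the stem cell arrays, against 3.07, 2.97 and 2.42, which overlapped. Its difference was the highest of the 29 genes, 0.82 ± 0.35 (SE, limma adjusted p = 0.197), but came from 1 of 3 probe sets near background, and the other 2 gave −0.02 and −0.09. Without stem cell array 3 this gene passed the threshold (1.18, limma adjusted p = 0.0437), while without stem cell array 1 it differed by 0.43 (limma adjusted p = 0.427) and as the mean of its probe sets by 0.24 (limma adjusted p = 0.450). Rad21, the mitotic kleisin, had 5.81, 6.44 and 6.19, against 6.47, 6.31 and 6.61. Its representative differed by −0.31 (limma adjusted p = 0.362), and its 2 dimmer probe sets differed by 0.54 and 0.28, so no direction could be given to it.

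Smc3, the SMC subunit common to mitotic and meiotic rings, had 6.35, 6.52 and 6.73 on the stem cell arrays, against 6.80, 6.71 and 6.82. These values overlapped between groups (−0.24, limma adjusted p = 0.384, with 0.14 on a second, dim probe set). Pds5a, a regulator that sits on the ring and influences its release, had 3.93, 4.61 and 4.09, against 4.85, 4.88 and 4.95. That was 1.61-fold lower on average with no overlap (−0.68 ± 0.21 SE, 95% interval −1.16 to −0.21, limma adjusted p = 0.112). Without stem cell array 2, Pds5a passed as lower (−0.88, limma adjusted p = 0.0345), while without stem cell array 1 it differed by −0.54 (limma adjusted p = 0.185). With the fluidics module as a block, which compared only stem cell array 2 with total testicular cell array 3, it differed by −0.35. Of the 7 measured cohesin genes, 6 were negative (beside 57.0% of all named genes) and 3 were lower without overlap (beside 19.2%).

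**Figure D2:**
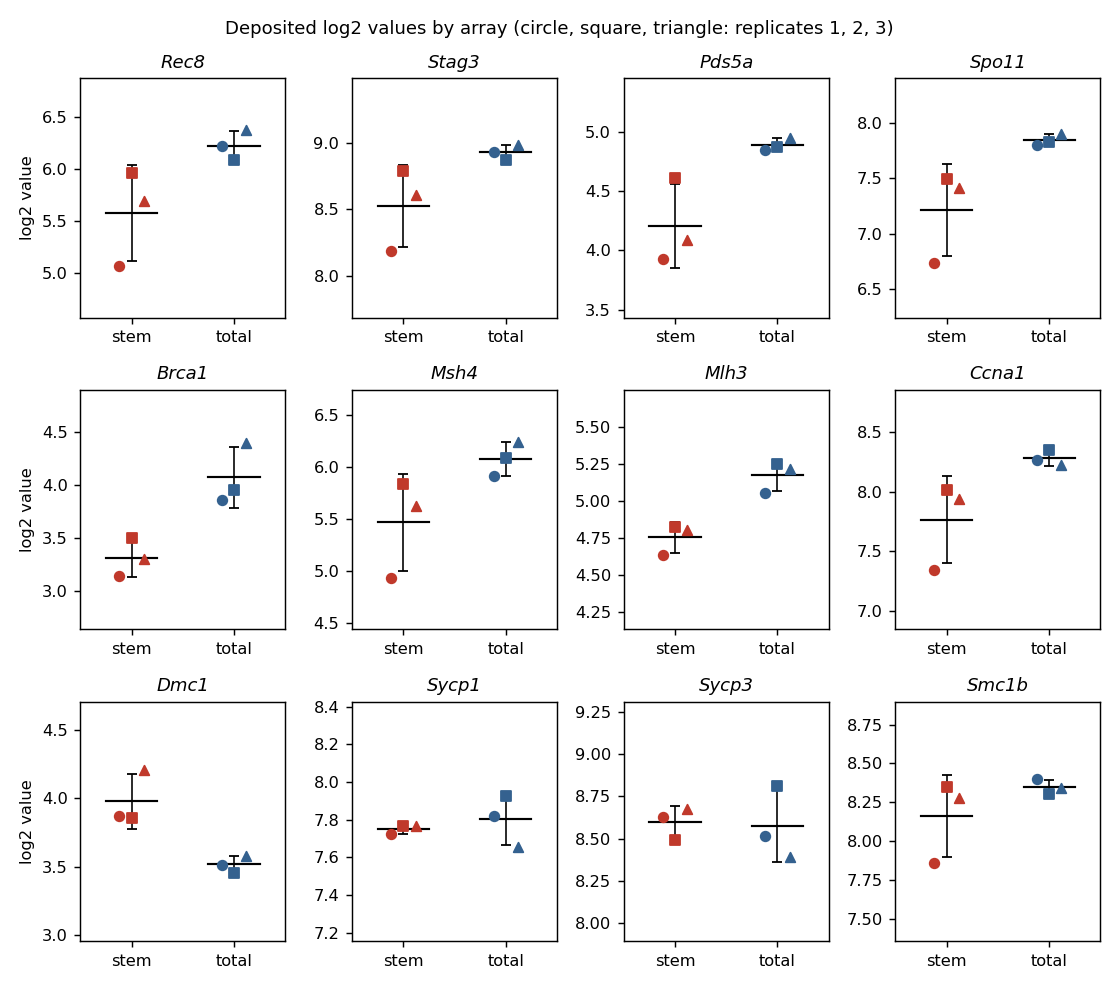
Deposited log2 values (vertical axis, scaled per gene) of 12 meiotic genes on each array, stem cell arrays in red at left and total testicular cell arrays in blue at right. Lines are means and bars are SD over 3 arrays. The groups do not overlap for Rec8, Stag3, Pds5a, Spo11, Brca1, Msh4, Mlh3 and Ccna1, all lower in stem cells, and for Dmc1, which is higher. They overlap for Sycp1, Sycp3 and Smc1b. The 12 genes are a selection in which separated groups are over-represented. Of all 29, 10 were lower without overlap (34.5%, beside 19.2% of all named genes) and 1 was higher (3.45%, beside 13.8%).

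Whether a meiotic subunit moved differently from a mitotic counterpart was asked within each array. One log2 value was subtracted from the other, and only that quantity was compared between groups. Rec8 minus Rad21 was −0.74, −0.48 and −0.50 on the stem cell arrays, against −0.26, −0.22 and −0.24 on the total testicular cell arrays. All 3 stem cell values were lower, by 0.33 on average (difference −0.33, exact two-sided permutation p = 0.1, the smallest that 3 arrays against 3 allow). That size rests on 1 Rad21 probe set, and with the mean of probe sets it was −0.82 (exact permutation p = 0.1). Smc1b minus Smc1a was 3.43, 4.77 and 5.36, against 5.33, 5.33 and 5.92, and these overlapped (−1.01, exact permutation p = 0.3). This pair gave −0.43 with the mean of probe sets and −0.46 without stem cell array 1. Stag3 minus Stag2 was 4.01, 3.80 and 4.25, against a range of 3.96 to 4.06, with a difference of 0.01 (exact permutation p = 0.9). Adjusted over these 3 pairs, the exact permutation p was 0.3 for Rec8, 0.45 for Smc1b and 0.9 for Stag3. Stag2, a mitotic counterpart of Stag3, had a second probe set that differed by 1.14 (limma adjusted p = 0.0750) where its representative differed by −0.41. Stag1, another mitotic counterpart, was not paired with Stag3. Its brightest probe set differed by −0.01 and its others by −0.05, −0.04 and 0.24. With the mean of both Stag2 probe sets the Stag3 pair turned to −0.76 (exact permutation p = 0.1), so that pair has no settled direction.

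**Figure D3:**
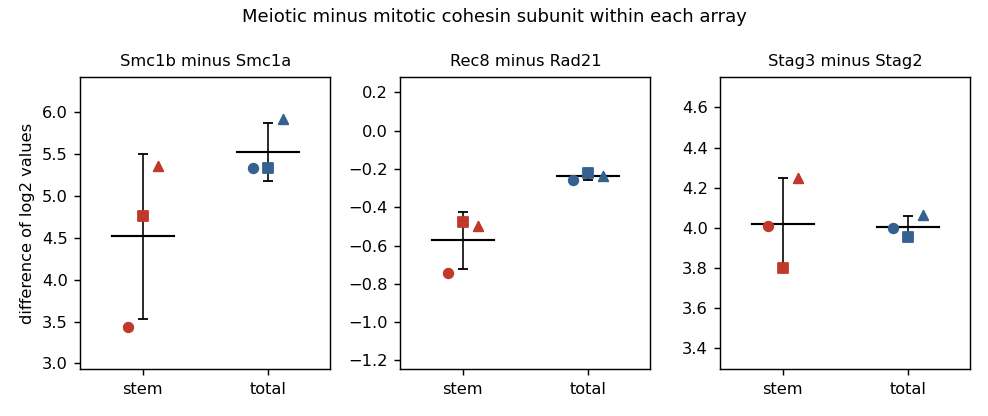
Log2 value of a meiotic cohesin subunit minus that of a mitotic counterpart on the same array. Stem cell arrays are in red at left and total testicular cell arrays in blue at right. Lines are means and bars are SD over 3 arrays. Rec8 minus Rad21 lies lower on all 3 stem cell arrays (−0.74 to −0.48, against −0.26 to −0.22), and the other pairs overlap.

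Spo11, which encodes the enzyme that cuts the DNA to start recombination, was among the lowest relative to total testicular cells. It had log2 values of 6.74, 7.49 and 7.41 on the stem cell arrays, against 7.80, 7.83 and 7.90. Every stem cell value lay below every other value, by 1.55-fold on average (−0.63 ± 0.21 SE, 95% interval −1.10 to −0.17, limma adjusted p = 0.126). Prdm9, the methyltransferase that marks the sites of breakage, lay within 1 log2 unit of background, with 2.54, 2.49 and 2.80, against 2.92, 2.82 and 2.49. The groups overlapped (−0.13, limma adjusted p = 0.665). Hormad1, an axis protein needed for breaks and for the synapsis checkpoint, had 5.68, 6.04 and 6.08, against 6.20, 6.15 and 6.07. Its groups overlapped (−0.21, 95% interval −0.60 to 0.18, limma adjusted p = 0.500). Trip13, the ATPase that removes HORMAD proteins from synapsed axes, differed by −0.12 and, on its other probe set, by −0.23.

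Among strand exchange genes, Brca1 gave the smallest p of the 29 genes and Dmc1 went the other way. Brca1, which acts with BRCA2 in loading recombinases, had 3.13, 3.49 and 3.30 on the stem cell arrays, against 3.86, 3.95 and 4.40. The groups did not overlap and the mean was 1.69-fold lower (−0.76 ± 0.20 SE, 95% interval −1.22 to −0.30, limma adjusted p = 0.0873). Its other 3 probe sets differed by −0.60, −0.51 and 0.12, and all 4 were dim. Dmc1, the meiosis-specific recombinase, had 3.87, 3.85 and 4.21, against 3.51, 3.45 and 3.58. It was the 1 gene of the 29 with every stem cell value above the others (0.46 ± 0.18 SE, 95% interval 0.06 to 0.86, limma adjusted p = 0.164). Over all named genes, 13.8% were higher without overlap. Dmc1 was also dim, on average 1.29 log2 units above background in total testicular cells. A second Dmc1 probe set gave 2.99, 3.03 and 3.08, against 3.00, 2.90 and 2.86, a difference of 0.11 with overlapping groups.

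None of the partners of the recombinases passed, and the groups overlapped for 3 of the 4 measured. Psmc3ip (also HOP2), which helps DMC1 invade the homologue, had 8.44, 8.82 and 8.64 on the stem cell arrays, against 8.87, 8.98 and 8.81 (−0.26, limma adjusted p = 0.298). Mnd1, the partner of HOP2, had 1.86, 2.36 and 2.13, against 2.49, 2.35 and 2.70, with 4 of 6 arrays above background (−0.39, limma adjusted p = 0.177). Those groups overlapped only through stem cell array 2. Brca2, which carries recombinases to resected DNA, had 6.56, 6.92 and 6.99 on the stem cell arrays, against 7.03, 6.99 and 7.05 (−0.20, limma adjusted p = 0.490). Its groups missed overlapping only narrowly (6.986 on stem cell array 3, against 6.988 on total testicular cell array 2). Tex15, a gene needed for recombinase loading in mouse spermatocytes, differed by −0.06 (95% interval −0.39 to 0.26).

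Msh4, Msh5 and Mlh3, grouped here as crossover genes, had stem cell values all below the others (beside 19.2% of all named genes), and none passed. Msh4, which with MSH5 stabilises recombination intermediates, had 4.94, 5.84 and 5.63 on the stem cell arrays, against 5.91, 6.09 and 6.25. On average it was 1.53-fold lower (−0.61 ± 0.24 SE, limma adjusted p = 0.174). Mlh3, whose protein resolves intermediates into crossovers, had 4.63, 4.82 and 4.80, against 5.05, 5.25 and 5.21. Its 3 stem cell values were closer together than those of Msh4 (−0.42 ± 0.17 SE, limma adjusted p = 0.178). Msh5 differed by −0.21 on its representative and by −0.14 on its second probe set, where the groups overlapped (limma adjusted p = 0.502 and 0.659). On the representative the groups missed overlapping only narrowly (4.13 on stem cell array 2, against 4.15 on total testicular cell array 3).

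None of the 3 measured cell cycle and transcription genes of meiotic prophase passed, and the groups overlapped for Cdk2 and Mybl1. Ccna1, the cyclin of male meiosis, had 7.34, 8.01 and 7.94 on the stem cell arrays, against 8.27, 8.35 and 8.23. No stem cell value reached the others, and the mean was 1.43-fold lower (−0.52 ± 0.19 SE, limma adjusted p = 0.151). Cdk2, its kinase partner, which also sits at chromosome ends and crossover sites, differed by −0.15 (limma adjusted p = 0.625). Mybl1, the gene of the factor A-MYB that drives pachytene transcription, had 1.97, 2.83 and 2.35, against 3.09, 2.62 and 3.04, with 4 of 6 arrays above background. The Mybl1 groups overlapped (−0.53 ± 0.23 SE, limma adjusted p = 0.198). H2afx, the histone whose phosphorylated form marks breaks and the sex body, differed by −0.15, and stem cell array 1 alone stood low for it (6.31, against 6.72 and 6.64 on arrays 2 and 3, and 6.69 to 6.71 on total testicular cell arrays).

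By their start times the arrays were sorted here into 3 fluidics rounds, and 2 rounds held both groups. Within round 1 (stem cell array 1 and total testicular cell arrays 1 and 3) the median of the 29 genes differed by −0.45, and all named genes by −0.09. Within round 3 (replicate 2 of each group) the median was −0.11 for the 29 and −0.05 for all named genes. Within these rounds Rec8 differed by −1.22 and −0.12, Spo11 by −1.11 and −0.34, Msh4 by −1.14 and −0.25, Brca1 by −0.996 and −0.46, and Dmc1 by 0.33 and 0.40. Of the 29 genes, 21 had the same sign in both rounds. The 8 that did not were Rad21 (−0.73 and 0.13), Mybl1 (−1.09 and 0.21), Sycp3 (0.17 and −0.32), Smc1b (−0.51 and 0.04), Mnd1, H2afx, Tex11 and Tex12. Stem cell array 3 shared its round with no other array.

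Other genes of meiotic prophase, listed apart from the 36, are given for comparison. Of 41 measured, 0 passed by limma (beside 0.137% lower and 1.63% higher of all named genes), 13 were lower at an unadjusted p under 0.05 (31.7%, beside 13.1% of all named genes) and 2 were higher (4.88%, beside 11.8%). Their median was −0.28, beside −0.05 for all named genes. The 4 with the smallest p were Stra8, Rad51c, Mau2 and Blm. Stra8, the gene that starts meiosis and whose promoter drove the sorting marker, had 5.61, 4.80 and 5.77 on the stem cell arrays, against 4.42, 4.54 and 4.20 (1.01, limma adjusted p = 0.0832). Rad51c, a gene of recombinational repair, had 5.03, 6.02 and 5.21, against 6.46, 6.20 and 6.33 (−0.91, limma adjusted p = 0.0956, with −0.31 on its other probe set). Mau2, which loads cohesin, differed by −0.68, though 1 of its 4 probe sets differed by under 0.01. Blm, a helicase that dissolves recombination intermediates, differed by −0.67 on its 1 probe set. None of the last 3 had overlapping groups, which their choice by small p makes likely. Of the 41 genes, 16 were lower without overlap (39.0%, beside 19.2% of all named genes) and 1 was higher (2.44%, beside 13.8%).

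Other marker lists place these values among germ cell stages. Spermatocyte markers outside the recombination machinery had a median difference of −0.30 (16 measured), and their summed level was 13677 to 17427 on the stem cell arrays, against 18522 to 18850. Spermatid genes had a median of −0.19 (18 measured), with 41904 to 53503, against 43233 to 54842. Undifferentiated spermatogonia had a median of 0.04 (21 measured) and differentiating spermatogonia of 0.14 (7 measured). In both spermatocyte and meiotic lists stem cell array 1 was the lowest, and the part of any cell type in these differences was not tested.

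**Figure D4:**
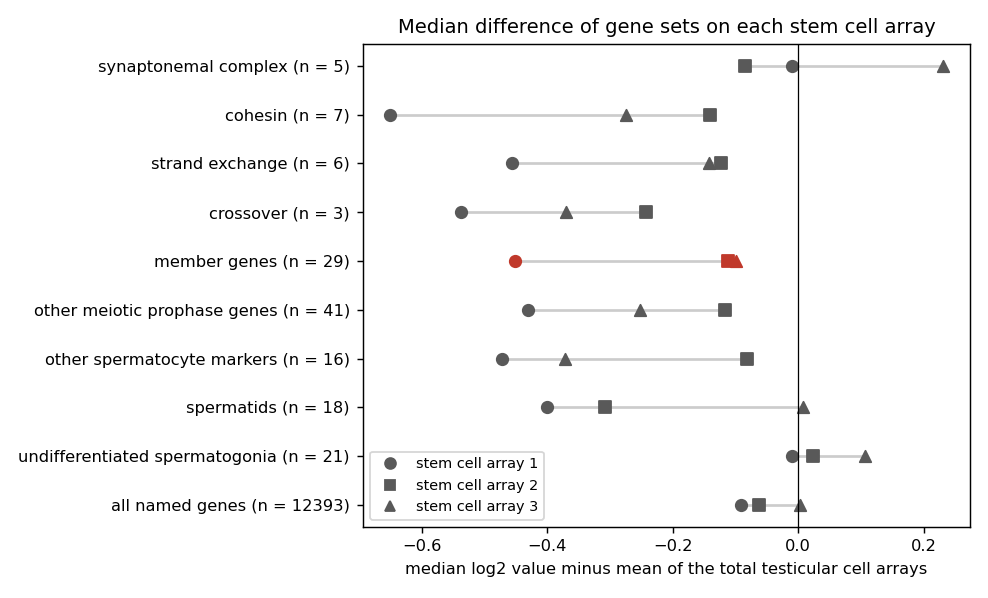
Median log2 difference of each gene set on each stem cell array, relative to the total testicular cell mean, with set sizes in brackets. The 29 meiotic genes are in red, at −0.45, −0.11 and −0.10 on stem cell arrays 1, 2 and 3. The synaptonemal complex genes lie near 0 on arrays 1 and 2 (−0.01 and −0.08), at 0.23 on array 3, while cohesin and crossover genes lie below 0 on all 3 arrays.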

How the data were processed

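Biotin-labelled material from the total RNA of each of 6 samples went onto its own array, per the labels' protocols. The authors deposited processed probe set values on a log2 scale, as their range (1.20 to 13.2) shows. Per the submitters' processing notes MAS5 and RMA were used, without a statement of which made the values. Instrument settings, per the file headers, gave 1 chip lot, 1 scanner and 4 modules. The headers name no rounds. The 3 fluidics rounds were inferred here from the start times, split at gaps of 15 minutes or more.

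The deposited log2 values were not transformed or filtered further, after 64 control probe sets were set aside. Of 22626 probe sets, 20380 name 1 gene, 691 several and 1555 none, and those with several lent no gene a name. Groups came from the titles. The comparison was fitted in R 4.3.3 with limma 3.58.1 (functions lmFit, then eBayes, two-sided, trend on, with 5.21 prior and 4 residual degrees of freedom). Replicate origin is not stated, so p-values measure the spread between these samples, which may be technical. Precision is limited by 3 arrays per group. Single quantities were compared by exact permutation tests. The genes and lists were chosen with earlier results of these data known, so no list was tested. Values are given on every array for the 10 genes of smallest p and 13 genes set by name, some of them the same, and other genes shown array by array were chosen after their values were seen. The 4 other prophase genes of smallest p are named. H2afx was matched through its newer name H2ax. On simulated data (200 of 22626 probe sets changed), limma found 55.2% of the 67 probe sets moved by log2 1, 94.0% of the 67 moved by log2 2, 100% of the 66 moved by log2 4, and 6 that were not moved. The simulated noise was independent, with the same spread in both groups. The real stem cell arrays were less alike (correlations of 0.970 to 0.984, against 0.992 to 0.995), and array 1 shifted many genes together. These rates may therefore not hold for the real arrays.

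Alternatives were median centring, quantile normalization, leaving out dim probe sets, replicate, round or module as a block, other moderation, array weights, each array left out, a threshold of 0.01, and the mean of a gene's probe sets. Offsets for linear values did not apply.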

Additional observations from a re-analysis of the deposited data

How the results depend on the processing

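With no array left out, none of the 29 genes, their 40 probe sets or the 41 other prophase genes passed under any alternative. The module as a block is no check of this. The only module with both groups held stem cell array 2 and total testicular cell array 3, so that fit compared these alone. The round as a block drew nothing from stem cell array 3, which was alone in its round. With 1 array left out, 0 to 1 of the 29 genes, 0 to 1 of the 40 probe sets and 0 to 7 of the 41 genes passed: Pds5a without stem cell array 2, Smc1a without stem cell array 3, and Rad51c, Stra8, Sun2, Nbn, Blm, Rad1 and Dazl (4 lower, 3 higher) without stem cell array 2. Those settings called more of all named genes too: 527 lower and 414 higher, and 93 lower and 796 higher, against 17 and 202 with all arrays. All other settings gave 0 to 93 lower and 0 to 719 higher. With the ordinary test both counts were 0, against 1625 lower and 1458 higher at an unadjusted limma p under 0.05. The median of the 29 genes stayed negative, between −0.32 and −0.10. Median centring moved the median of all named genes to −0.16 from −0.05, and the 29 lay 0.15 below it in both (difference −0.15); then 27 of the 29 were negative, against 24.

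Some differences changed sign. Sycp1 turned to 0.11 with the module as a block, which is stem cell array 2 against total testicular cell array 3 alone. It turned to 0.023 after quantile normalization, and ranged from −0.12 to 0.013 with 1 array left out. Sycp3 turned to −0.038 with the round as a block and −0.088 after median centring, and ranged from −0.067 to 0.14 with 1 array left out. Smc1b turned to 0.0069 with the module as a block, from those same arrays alone, and Rad21 to 0.17 with the mean of its probe sets. Stag3 minus Stag2 turned to −0.76 with the mean of probe sets and ranged from −0.10 to 0.12 with 1 array left out. The causes were not tested.

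With the replicate number as a block, 0 of the 29 genes passed, their median was −0.21, and 93 genes were lower and 644 higher over all named genes. The deviations of same-numbered arrays from their group means correlated at −0.01, 0.01 and 0.30. Stem cell arrays 1 and 2 correlated best with another number, array 2 by little (0.04, against 0.01). With 3 arrays per group, such values cannot settle whether the numbers pair the samples. As a block the cohesin pairs gave −1.01, −0.33 and 0.01 for Smc1b, Rec8 and Stag3 (exact sign-flip permutation p = 0.25, 0.25 and 0.75). The smallest value this test can give with 3 replicate numbers is 0.25.

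Dim signal limits 8 of the 29 genes, which lay within 2 log2 units of background in total testicular cells. They are Tex11, Smc1a, Trip13, Prdm9, Dmc1, Mnd1, Brca1 and Mybl1.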

Other observations

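Genes of the DNA break sensors, outside the 36 and chosen after their values were seen, differed by −0.76 to 0.22, and none passed. Mre11a, the nuclease of the complex that first binds a break, had 5.99, 6.59 and 6.35 on the stem cell arrays, against 6.97, 6.71 and 6.90 (−0.55, limma adjusted p = 0.139). Its partner Nbn differed by −0.50 with no overlap (limma adjusted p = 0.175), and Rad50, the third partner, by −0.09 (limma adjusted p = 0.787). In the checkpoint clamp, Rad1 had 3.39, 4.06 and 3.58, against 4.19, 4.50 and 4.61 (−0.76, limma adjusted p = 0.104). Rad9b, the testis-enriched form of another clamp subunit, differed by −0.61, Rad9a by −0.34 and Hus1 by −0.38, none past the threshold. The single-strand binding genes Rpa1, Rpa2 and Rpa3 differed by −0.23, 0.02 and 0.22.

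Among other germ cell genes, also chosen after their values were seen, Piwil1, a pachytene piRNA factor, had 6.66, 7.93 and 7.08 on the stem cell arrays, against 7.95, 8.05 and 7.97 (−0.77, limma adjusted p = 0.152). Dazl, an RNA-binding protein gene of germ cells, had 7.11, 6.61 and 7.37, against 6.53, 6.56 and 6.66 (0.45, limma adjusted p = 0.222). Stra8 and Dazl were both lowest on stem cell array 2 among the stem cell arrays. Sun1 and Sun2, which tether telomeres to the nuclear envelope, differed by −0.40 and 0.72 (limma adjusted p = 0.212 and 0.147), in opposite directions.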
